A study of Rattus norvegicus with 18 samples.

Results

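The 10 genes described here encode subunits of the ionotropic glutamate receptors of the NMDA type (Grin1, Grin2a, Grin2b, Grin2c, Grin2d and Grin3a) and of the AMPA type (Gria1, Gria2, Gria3 and Gria4). They were taken by name from the 16665 rat genes that the array's transcript accessions name. Every probe of the 10 genes was kept apart, which gave 17 of the 45598 probes, 9 for NMDA and 8 for AMPA receptor genes. The animals were 18 male Wistar rats, and the hypothalamus of each was run on its own array, with 6 rats per group. Their age is given as 9 weeks for the samples and 5 weeks in the study design. These were taken as the ages at the end and at the start of the protocol. Rats with stress and exercise underwent restraint lasting 1 to 1.5 h a day, 5 days per week, during 3 weeks. They also ran freely in a wheel for 4 weeks, the first of them before the restraint began. Rats with stress were restrained in the same way and had no wheel, and control rats had neither. No group had the wheel without restraint. A single operator dissected every hypothalamus, and each sample is bulk tissue.

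Ionotropic glutamate receptors are tetramers that open a cation channel when glutamate binds. AMPA receptors carry most of the fast excitatory current and are built from the GluA1 to GluA4 subunits, which Gria1 to Gria4 encode. The GluA2 subunit, once its messenger RNA is edited, keeps calcium out of the channel. NMDA receptors need the GluN1 subunit from Grin1, which binds glycine or D-serine, together with a GluN2 subunit, which binds glutamate and sets the kinetics of the channel, or a GluN3 subunit. Magnesium blocks the NMDA channel until the membrane is depolarised, and the open channel passes calcium. In the hypothalamus both receptor types act on the neurons that govern feeding, hormone release and sympathetic outflow.

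Promoter sequences are shown for the 3 genes that were called higher under stress with exercise than in both other groups, Grin1, Grin2c and Grin2d, the last by 1 of its 2 probes. They come from RefSeq on build GRCr8 and give the 250 bases before the gene's start, 5′ to 3′ on the minus strand, on which all 3 genes lie. The Grin1 stretch is chr3:28528755-28529004, the Grin2c stretch chr10:101005139-101005388 and the Grin2d stretch chr1:105481237-105481486.
Grin1: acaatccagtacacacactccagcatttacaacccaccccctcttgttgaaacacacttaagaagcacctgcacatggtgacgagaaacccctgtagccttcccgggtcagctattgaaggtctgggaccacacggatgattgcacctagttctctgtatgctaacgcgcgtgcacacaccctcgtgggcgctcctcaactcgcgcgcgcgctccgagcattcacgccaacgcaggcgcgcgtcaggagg
Grin2c: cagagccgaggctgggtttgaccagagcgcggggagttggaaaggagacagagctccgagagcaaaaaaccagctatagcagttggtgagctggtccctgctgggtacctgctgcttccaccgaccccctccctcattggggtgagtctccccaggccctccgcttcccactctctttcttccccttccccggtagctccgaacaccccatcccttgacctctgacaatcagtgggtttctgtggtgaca
Grin2d: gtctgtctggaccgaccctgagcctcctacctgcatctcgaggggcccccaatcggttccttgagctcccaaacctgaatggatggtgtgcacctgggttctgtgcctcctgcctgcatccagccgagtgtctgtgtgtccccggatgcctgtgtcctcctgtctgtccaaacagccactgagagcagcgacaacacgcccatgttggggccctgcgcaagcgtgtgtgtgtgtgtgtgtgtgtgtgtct
The Grin1 stretch had 57.6% G and C and 19 CpG pairs. Grin2c had 59.6% and 8 pairs, and Grin2d had 60.4% and 9 pairs, beside medians of 51.2% and 5 pairs over 33469 rat promoters of this length. The table also held Grin3a and Gria4, but not Grin2a, Grin2b, Gria1, Gria2 or Gria3. The motifs GGGCGG (the core of the GC box), GCGGGGGCG (the site of the EGR family of activity-induced factors) and TGACGTCA (the cyclic AMP response element) were searched on both strands from 250 bases before to 50 bases after the start of the 5 genes. Grin1 alone of the 5 held a match, shown here because an EGR site and a GC box overlap in it, with the letters of both in capitals, at bases 16 to 45 after the start (chr3:28528710-28528739, minus strand).
Grin1, after the start: gcgtcaggaaGCGGGGGCGGtgggaggggt
The EGR letters occur in 2.73% of all rat windows of this length, and GGGCGG in 33.1%. A match describes the letters only, and its use in these rats was not tested.

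A level here is the log2 of the array's processed signal minus the 75th percentile of that array, so that 0 is a bright probe and -5 a dim one. Signal depends on the probe, so levels are compared between groups for 1 probe and never between probes. Where a gene has several probes they are numbered by brightness. Of the 17 probes, 16 were well above background on all 18 arrays. Grin3a probe 2 was so on 5 arrays of stress with exercise, 2 of stress and 6 of control. All 17 passed the detection filter and were tested with limma among 31305 probes, with Benjamini-Hochberg adjustment over all of them and 0.05 as the threshold.

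The arrays came from 5 slides scanned on 2 days, and the slides were not balanced over the groups. Control arrays lay on slides 1 and 2, stress arrays 1 to 4 on slide 3, stress arrays 5 and 6 together with stress with exercise arrays 1 and 2 on slide 4, and stress with exercise arrays 3 to 6 on slide 5. The first principal component of all tested probes held 32.1% of the variance. It placed the 8 arrays of slides 4 and 5 between -40.67 and -24.83, and the 10 arrays of slides 1 to 3 between 20.98 and 33.77. No slide held control arrays beside arrays of another group. All 12 hypothalamic marker genes examined, among them Avp, Oxt, Pomc and Hcrt, were detected. Their mean level lay between 0.74 and 1.11 in stress with exercise, 0.80 and 1.16 in stress and 0.68 and 0.97 in control. The 75th percentile of the arrays was 1963 to 2422 signal units, and no spot was saturated.

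The main comparison for running is stress with exercise against stress. Here 3 of the 17 probes passed, all 3 of NMDA receptor genes and all higher with exercise: Grin1, Grin2c and Grin2d probe 1. Across the array 3.72% of tested probes passed in either direction, 1.17% as higher and 2.56% as lower. The median difference of the 17 probes was 0.15, against 0.018 for all tested probes, and 14 of the 17 differences were above 0. No AMPA receptor probe passed. With the slide set (slides 4 and 5 or slides 1 to 3) in the model none of the 17 passed, and 5 of all tested probes did. When the arrays were left out in turn, Grin1 and Grin2d probe 1 kept the call only without stress array 5 or stress array 6, and Grin2c kept it in 5 of 18 cases, with limma adjusted p of up to 0.110 for Grin1 and Grin2d and 0.102 for Grin2c. With these 2 groups alone in the fit 0 of the 17 passed, and likewise with no filter on dim probes. In bulk tissue, a change in the number of cells of a type and a change in RNA per cell cannot be told apart.

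Grin1, which encodes the subunit that every NMDA receptor contains, was at 1.01, 1.16, 1.24, 1.20, 1.21 and 1.29 in stress with exercise arrays 1 to 6. In stress arrays 1 to 6 it was at 0.83, 0.79, 0.77, 0.78, 1.11 and 1.05, and in control arrays at 0.87, 0.92, 0.75, 0.83, 0.63 and 0.70. The means were 1.19 ± 0.097 in stress with exercise, 0.89 ± 0.15 in stress and 0.78 ± 0.11 in control (SD, n = 6 each). All exercise arrays lay above every control array, while stress arrays 5 and 6 reached into the exercise range. Of all tested probes, 17.1% had no overlap between exercise and control. The difference to stress was 0.30 (SE 0.070, 1.23-fold), with a limma adjusted p of 0.0406. To control it was 0.40 (SE 0.070, 1.32-fold), adjusted p = 9.59e-04. Given the slide set these became 0.10 (adjusted p = 0.899) and 0.11 (adjusted p = 0.79). The Grin1 probe, A_44_P536333 for transcript NM_017010, is the mean of 2 spots. In the annotation the gene overlaps Lrrc26.

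**Figure D1:**
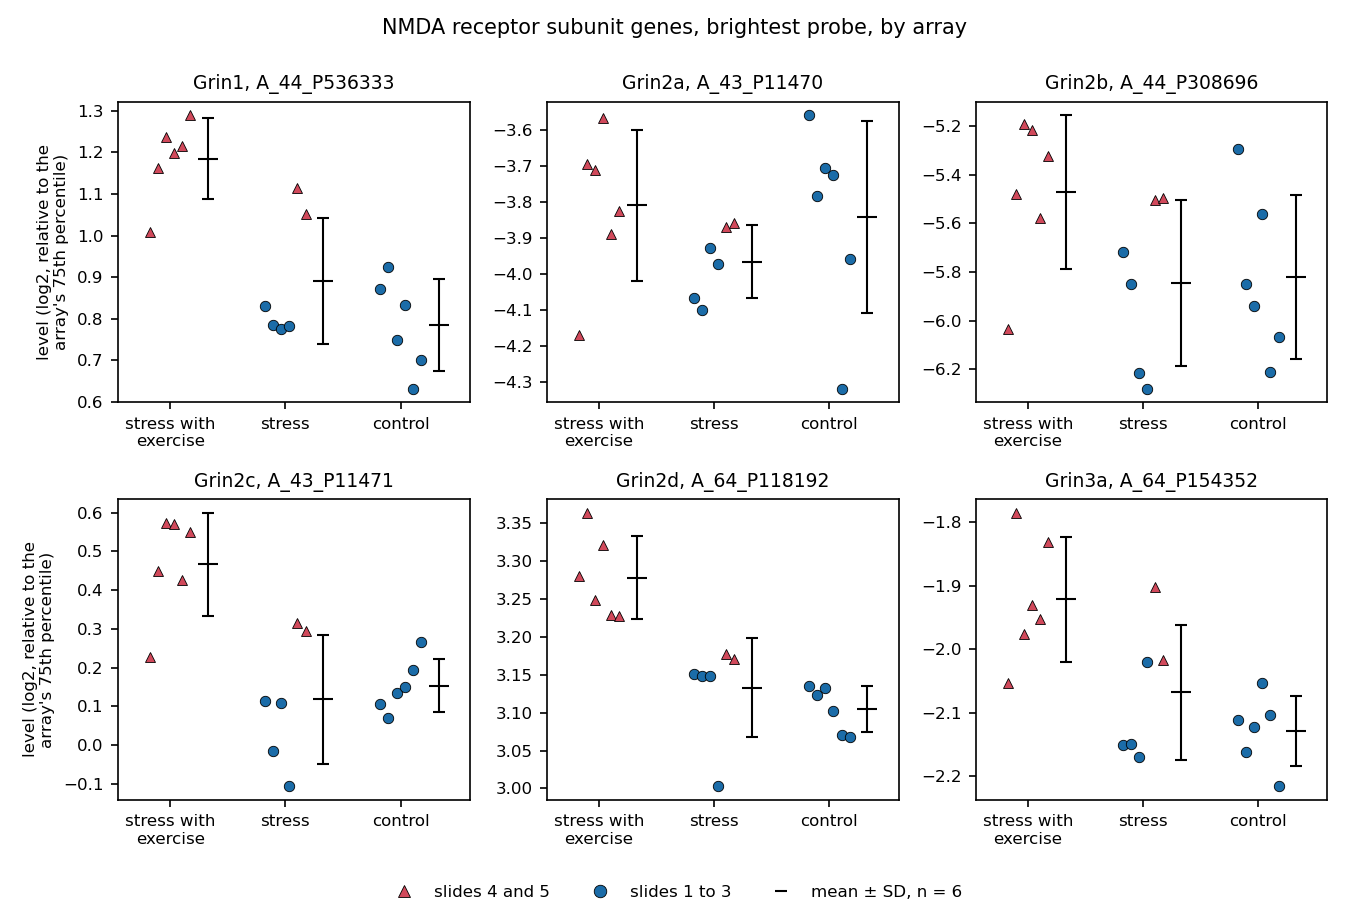
Level of the brightest probe of each NMDA receptor gene on each of the 18 arrays (log2, relative to the array's 75th percentile, with its own axis range per panel). Triangles are arrays of slides 4 and 5, circles those of slides 1 to 3, and bars give mean ± SD (n = 6). Stress arrays 5 and 6, the 2 triangles of that group, lie above the other 4 stress arrays for Grin1, Grin2a, Grin2b, Grin2c and Grin2d, and for Grin3a too, where array 6 (-2.017) is barely above array 4 (-2.020).

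Among the GluN2 genes, Grin2c encodes GluN2C, a subunit of receptors with a weaker magnesium block. It was at 0.23, 0.45, 0.57, 0.57, 0.43 and 0.55 in stress with exercise, 0.11, -0.014, 0.11, -0.11, 0.32 and 0.29 in stress and 0.11, 0.071, 0.13, 0.15, 0.19 and 0.27 in control (arrays 1 to 6 of each group). Exercise array 1 lay within the range of the stress and control arrays, and the other 5 exercise arrays lay above all of them. Means were 0.47 ± 0.13 with exercise, 0.12 ± 0.17 in stress and 0.15 ± 0.069 in control (SD, n = 6 each). The difference was 0.35 to stress (SE 0.074, limma adjusted p = 0.0375) and 0.31 to control (SE 0.074, adjusted p = 0.0056). With the slide set these became 0.16 and 0.034, with adjusted p = 0.82 and 0.958.

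Grin2d encodes GluN2D, the GluN2 subunit with the slowest deactivation. Probe 1 (A_64_P118192) was at 3.28, 3.36, 3.25, 3.32, 3.23 and 3.23 in stress with exercise. It was at 3.15, 3.15, 3.15, 3.00, 3.18 and 3.17 in stress and at 3.14, 3.12, 3.13, 3.10, 3.07 and 3.07 in control. No exercise array overlapped either other group, which was so for 1.48% of all tested probes against stress and for 17.1% against control. The difference was small, 0.15 to stress (SE 0.036, 1.11-fold, limma adjusted p = 0.0417) and 0.17 to control (SE 0.036, 1.13-fold, adjusted p = 0.00257). Given the slide set it was 0.10 (SE 0.048) to stress and 0.11 (SE 0.061) to control, with adjusted p = 0.776 and 0.618. Probe 2 (A_44_P1081810) ranged over -4.42 to -3.91 with exercise, -4.42 to -4.09 in stress and -4.43 to -3.97 in control. Its differences were 0.046 to stress and 0.075 to control, neither of which passed. Both probes carry the accession NM_022797, yet their correlation over the 18 arrays was 0.17, and which of them measures the Grin2d transcript was not settled here. In the annotation Grin2d overlaps Grwd1.

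Grin2a and Grin2b encode GluN2A and GluN2B, the main GluN2 subunits of the adult forebrain. Grin2a probe 1 (A_43_P11470) was at -4.17, -3.70, -3.71, -3.57, -3.89 and -3.83 in stress with exercise, -4.07, -4.10, -3.93, -3.97, -3.87 and -3.86 in stress and -3.56, -3.78, -3.71, -3.73, -4.32 and -3.96 in control. Probe 2 (A_44_P505902) had lowest, median and highest levels of -4.18, -3.74 and -3.54 with exercise, -4.35, -4.11 and -3.81 in stress and -4.46, -4.14 and -3.74 in control. The groups overlapped for both probes. Neither passed against stress (0.16 and 0.33, limma adjusted p = 0.421 and 0.127 for probes 1 and 2) or against control (0.033 and 0.33, adjusted p = 0.868 and 0.0654). Grin2b was at -6.04, -5.48, -5.19, -5.21, -5.58 and -5.32 with exercise, -5.72, -5.85, -6.22, -6.28, -5.50 and -5.49 in stress and -5.29, -5.85, -5.94, -5.56, -6.21 and -6.07 in control. Its difference to stress, 0.37, was the largest of the 17, but so was its spread among the NMDA probes well above background throughout (SE 0.18), and it did not pass (adjusted p = 0.221). Exercise array 1 was the lowest of its group for every NMDA receptor probe except Grin2d probe 1. The same held for all Gria3 and Gria4 probes, but not for those of Gria1 and Gria2.

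Grin3a encodes GluN3A, a glycine-binding subunit that lowers calcium entry. Probe 1 (A_64_P154352, transcript NM_138546) was at -2.05, -1.79, -1.98, -1.93, -1.95 and -1.83 in stress with exercise, -2.15, -2.15, -2.17, -2.02, -1.90 and -2.02 in stress and -2.11, -2.16, -2.12, -2.05, -2.10 and -2.22 in control. Only exercise array 1 reached into the control range, and stress arrays 4, 5 and 6 into that of exercise. The difference to control, 0.21 (SE 0.053), passed with a limma adjusted p of 0.0096. That to stress, 0.15, did not (adjusted p = 0.108), and with the slide set the difference to control was 0.044 (adjusted p = 0.926). Probe 2 (A_44_P1362220, transcript NM_001198583) was the dimmest of the 17 and ranged over -8.63 to -6.96 with exercise, -8.09 to -7.24 in stress and -7.44 to -6.25 in control. It was -0.37 against control with exercise (SE 0.26, adjusted p = 0.311), with the sign opposite to probe 1.

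The AMPA receptor genes gave 1 call in all comparisons. Gria4, which encodes GluA4, was lower in stress with exercise than in control by its brighter probe. That probe (A_42_P736258, transcript NM_001113185) was at 0.88, 1.01, 0.88, 1.02, 0.94 and 1.09 in stress with exercise, 1.12, 1.08, 1.21, 1.14, 1.03 and 1.13 in stress and 1.14, 1.16, 1.18, 1.20, 1.08 and 1.00 in control. The 5 exercise arrays other than array 6 lay below every stress array. The difference was -0.15 to control (SE 0.046, limma adjusted p = 0.0209) and -0.15 to stress (SE 0.046, adjusted p = 0.0709), of which the first passed. With the scan day as a block the difference to stress, -0.15, passed as well (adjusted p = 0.0497). Without exercise array 3 the difference to control had an adjusted p of 0.0502, and with the slide set it was -0.097 (adjusted p = 0.789). Probe 2 (A_44_P323349, transcript NM_017263) had differences of the other sign, 0.093 to control and 0.16 to stress, and neither passed. The correlation of the 2 Gria4 probes over the 18 arrays was -0.30, and 0.13 after the mean of each slide set was taken away.

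Gria1, Gria2 and Gria3 encode GluA1, GluA2 and GluA3, and none of their 6 probes passed in any comparison. Gria1 probe 1 (A_43_P15761) was at -1.36, -1.37, -1.41, -1.47, -1.46 and -1.56 in stress with exercise, -1.45, -1.31, -1.37, -1.42, -1.34 and -1.41 in stress and -1.37, -1.38, -1.35, -1.36, -1.27 and -1.44 in control. The Gria1 probes 1 and 2 differed by -0.054 and -0.075 from stress and by -0.078 and -0.14 from control, and against control the limma adjusted p were 0.168 and 0.0803. Gria2 was at -5.03, -5.12, -4.75, -4.89, -4.75 and -4.84 with exercise, -5.23, -4.87, -5.02, -5.04, -4.85 and -4.75 in stress and -5.07, -5.17, -4.90, -5.10, -4.84 and -4.99 in control. The 3 groups covered each other for this gene, with a difference of 0.065 to stress (SE 0.085) and 0.12 to control (SE 0.085). Gria3 probe 1 (A_43_P10280, 2 spots) was at 0.30, 0.39, 0.55, 0.51, 0.38 and 0.42 with exercise, 0.37, 0.38, 0.23, 0.37, 0.56 and 0.51 in stress and 0.40, 0.37, 0.35, 0.35, 0.29 and 0.39 in control. Stress arrays 5 and 6 were the highest of their group, and the difference of exercise to stress was 0.023 (SE 0.053). Gria3 probes 2 and 3 differed by 0.072 and 0.23 from stress and by 0.0049 and 0.049 from control.

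**Figure D2:**
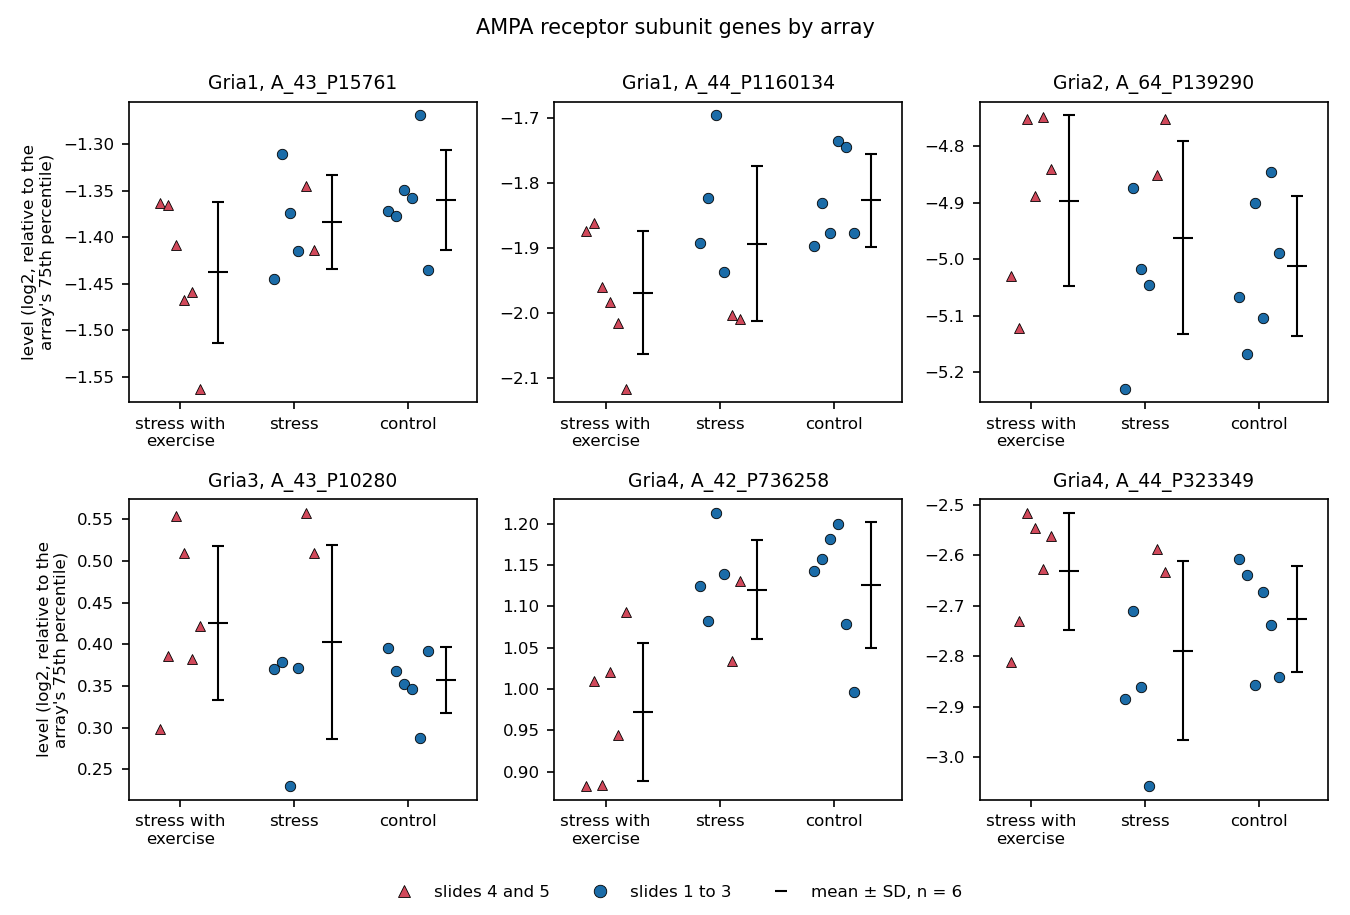
Levels of 6 of the 8 AMPA receptor probes on each of the 18 arrays (log2, relative to the array's 75th percentile, with its own axis range per panel), drawn as for the NMDA genes. The exercise arrays of Gria4 probe A_42_P736258 lie at 0.88 to 1.09, those of control at 1.00 to 1.20, and the other Gria4 probe does not repeat the order.

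Against control, 5 of the 17 probes passed with exercise, 4 higher (Grin1, Grin2c, Grin2d probe 1 and Grin3a probe 1) and Gria4 probe 1 lower. Of all tested probes 26.04% passed, 10.97% as higher and 15.1% as lower, so the 29.4% among the 17 was close to the background. The median difference of the 17 was 0.075, and that of all tested probes 0.0044. The groups did not overlap for Grin1 and Grin2d probe 1, which was also so for 17.1% of all tested probes. Both comparisons of exercise share the same 6 exercise arrays, and all 6 of them lie on slides 4 and 5, where there is no control array. For this comparison slide and group cannot be told apart, and the model with the slide set rests on the stress arrays of both slide sets. Of the 5 probes none passed in that model. With the slide as a random block Grin1 alone of the 17 passed, at 0.32 (limma adjusted p = 0.049), beside 1755 of all 31305 tested probes.

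**Figure D3:**
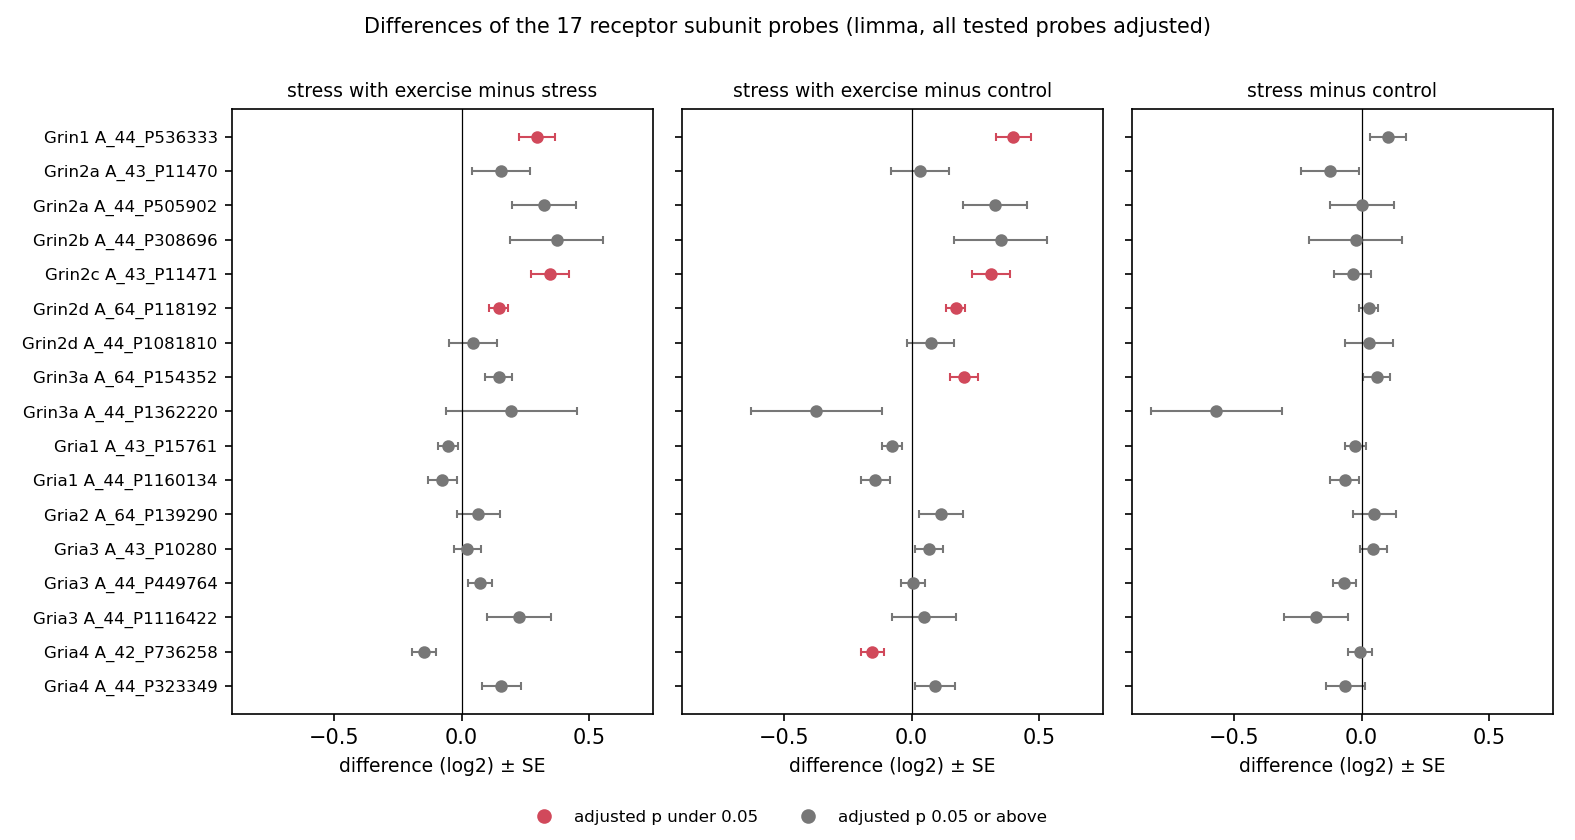
Difference ± SE of each of the 17 probes in the 3 comparisons (log2), from limma on all 18 arrays. Red points are those with an adjusted p under 0.05, which are 3 against stress, 5 against control with exercise and 0 for stress against control.

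Stress without the wheel gave no call against control. With limma 0 of the 17 probes and 0.0% of all tested probes passed, and the lowest adjusted p over the array was 0.11. At an unadjusted p under 0.05 there were 1 of the 17 and 3695 of all tested probes. The 1 was Grin3a probe 2, at -0.57 (SE 0.26, adjusted p = 0.408), for which 2 of 6 stress arrays were well above background. For Grin1 the difference was 0.11 (SE 0.070, adjusted p = 0.558). The median of the 17 differences was -0.023, and that of all tested probes -0.018. The stress minus control differences of the 5 probes called with exercise ran from -0.035 (Grin2c) to 0.11 (Grin1), and none of the 5 passed.

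Within the stress group, the 2 arrays that share a slide with exercise arrays were compared with the other 4, and Grin1 alone of the 17 probes passed. Grin1 was at 1.11 and 1.05 in stress arrays 5 and 6 of slide 4, against 0.77 to 0.83 in stress arrays 1 to 4 of slide 3. The difference of 0.29 passed with limma (adjusted p = 0.0283), as 9.89% of all tested probes did. It is close in size to the 0.30 between stress with exercise and stress, but the same stress arrays enter both differences. The cause of either was not tested. Grin2b differed by 0.52 (adjusted p = 0.145), Grin2a probe 2 by 0.31 (adjusted p = 0.132) and Grin2c by 0.28 (adjusted p = 0.102), none of which passed. Grin2d probe 1 and Gria4 probe 1 differed by 0.062 and -0.057. The rats of both slides had the same treatment by the labels.

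Restricted to slides 4 and 5, which hold 6 exercise and 2 stress arrays, the exercise difference was 0.10 for Grin1, 0.16 for Grin2c and 0.10 for Grin2d probe 1, and none passed. These are the same differences as with the slide set in the model, since both rest on the same arrays. They are not a second result. The scan days, which also differ in the slides they hold, gave unlike values for Grin1 and Grin2c. On day 1, with 2 exercise and 2 stress arrays, all on slide 4, Grin1 differed by 0.0031 (limma adjusted p = 0.991) and Grin2c by 0.034 (adjusted p = 0.892). On day 2, with 4 of each, Grin1 differed by 0.44 (adjusted p = 5.72e-05), and Grin2c by 0.50 (adjusted p = 5.71e-04). For Grin2d probe 1 the days gave 0.15 and 0.14, and for Gria4 probe 1 -0.14 and -0.15. Neither of these probes passed on either day. On day 2 all exercise arrays lay on slide 5 and all stress arrays on slide 3. Stress against control gave 0.35 for Grin1 on day 1 (adjusted p = 0.0284) and -0.10 on day 2 (adjusted p = 0.342). On day 1 this set slide 4 against slide 2, and on day 2 slide 3 against slide 1, so slide and group cannot be told apart there. Left without stress arrays 5 and 6, a choice made after the data were seen, the comparison of exercise with stress called 7 of the 17 probes, Grin1 at 0.39, Grin2c at 0.44, Grin2a probe 2 at 0.43, Grin2d probe 1 at 0.17, Grin3a probe 1 at 0.20, Gria4 probe 1 at -0.17 and Gria4 probe 2 at 0.25. The same fit called 7797 of all tested probes. In it all stress arrays lay on slide 3 and all exercise arrays on slides 4 and 5, so slide and group cannot be told apart.

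**Figure D4:**
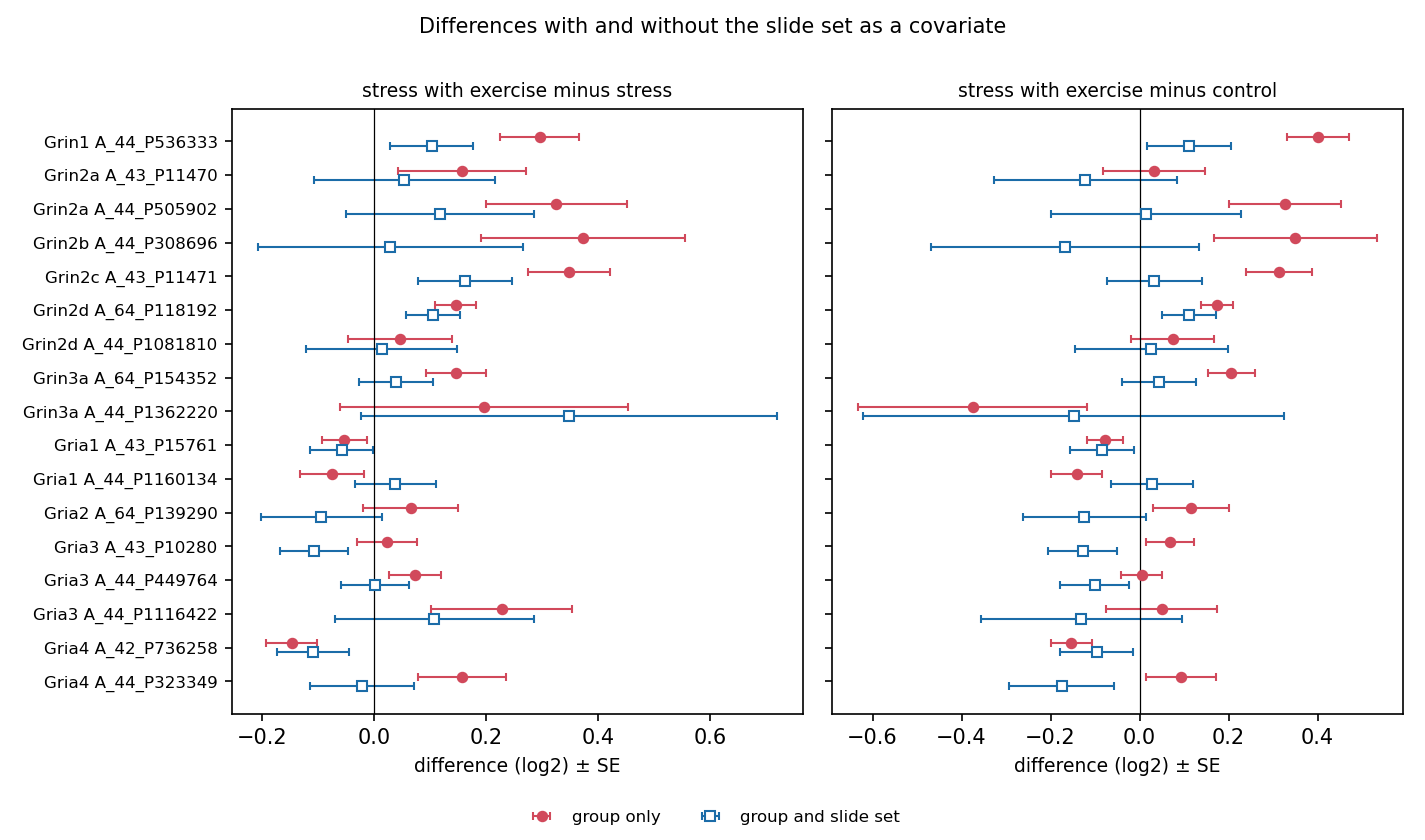
Difference ± SE of each of the 17 probes (log2) for stress with exercise against stress and against control, with group alone in the model (filled circles) and with the slide set added (open squares). The Grin1 difference of 0.40 to control stands at 0.11 with the slide set, and no open square marks a probe that passed.

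The proteins that work with these receptors were examined in 5 lists of genes, each by its brightest tested probe. Against stress, exercise changed 0 of 10 auxiliary AMPA subunits, 0 of 20 scaffold and signalling genes, 0 of 11 other glutamate receptors, 0 of 12 genes of glutamate and D-serine supply and 0 of 3 RNA editing enzymes, where limma called 3.37% of 13056 genes. At an unadjusted p under 0.05 there were 3, 5, 5, 1 and 0 genes of the 5 lists in that order, which is 14 of 56, or 25.0%, beside 24.3% of all tested probes. Their median differences were 0.066, 0.028, 0.11, 0.057 and 0.17. Those with the smallest p were Shisa7 at 0.22 and Cacng8 at 0.19, Dlg4 at 0.12 and Shank2 at 0.20, Grm6 at -0.46 and Grm3 at 0.21, Glul at -0.17 and Slc1a2 at 0.13, and Adar at 0.093 and Adarb1 at 0.26. Against control, where 26.5% of genes were called, 3 of the 10 auxiliary AMPA subunits rose: Cacng3 by 0.30, Cacng8 by 0.25 and Shisa7 by 0.24, which code for proteins that set the trafficking and gating of AMPA receptors. Of the 20 scaffold and signalling genes 3 rose, with Dlg4 (PSD-95) at 0.19, Grip2 at 0.16 and Camk2b at 0.17. Nptx2, which encodes a secreted pentraxin that clusters AMPA receptors, fell by 0.46. Grm6 fell by 0.58 as the only one of 11 other glutamate receptors. Among the 12 supply genes Glul, the glutamine synthetase of astrocytes, fell by 0.36, and the glutamine transporters Slc38a1 and Slc38a2 rose by 0.16 each. Of the 3 editing enzymes Adar rose by 0.16, while Adarb1, the enzyme that edits the calcium site of Gria2, did not pass. Other probes of Dlg4, Camk2b, Grm6 and Adar did not pass, and the sign was opposite for Camk2b (-0.092) and Grm6 (0.44). The median differences to control of the 5 lists, in the same order, were 0.057, 0.039, 0.012, 0.041 and 0.16. In stress against control limma called 0 genes of the 5 lists, and 0, 0, 1, 2 and 0 had an unadjusted p under 0.05, beside 11.8% of all tested probes, and with the slide set none of the genes named here passed.

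Markers of other cells and tissues were examined in the same comparison with control. Of 68 tested markers 22 passed, or 32.4%, beside 26.5% of all genes, and no list was tested as a whole. The 8 striatal markers had a mean level of -1.28 to -0.57 in stress with exercise, -1.30 to -0.89 in stress and -1.41 to -1.25 in control. Of these 4 rose (Drd2, Adora2a, Ppp1r1b and Rgs9). Among 6 oligodendrocyte markers 3 rose (Mog, Mag and Cnp), and the mean level was 3.07 to 3.24 with exercise, 2.92 to 3.08 in stress and 2.84 to 3.02 in control. Of 6 precursor markers 3 rose (Cspg4, Olig1 and Olig2) and Gpr17 fell, while 1 of 6 pan-neuronal markers rose (Rbfox3). Of 6 microglial markers Tmem119 rose and Cx3cr1 and Itgam fell. Dimmer probes of Mag (-0.094) and Itgam (-0.083) did not pass, and that of Mag had the opposite sign. Of the 12 hypothalamic markers Npy rose, and Trh and Hdc fell, with a dimmer Hdc probe at -0.013 that did not pass. Of 6 astrocyte markers Gja1 fell, of 5 cortical and hippocampal markers Wfs1 rose and Prox1 fell, and of 3 pituitary markers Pitx1 fell. No thalamic or choroid plexus marker passed, of 5 each, but their mean levels varied widely between arrays. Thalamic markers lay at -1.73 to -0.30 with exercise, -2.45 to -0.95 in stress and -1.97 to -0.53 in control. Choroid plexus markers lay at -4.21 to -3.45, -5.00 to -1.66 and -4.23 to -2.47, and pituitary markers at -4.54 to -1.31, -5.01 to -0.46 and -4.47 to -0.98, in the same order. With such spread, the lack of a call does not show equal levels. None of the marker genes named here as passing did so with the slide set. Against stress Tmem119 alone of them was called, and the part of these cells in the receptor differences was not tested.

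By likeness over the 18 arrays, the named genes closest to Grin1 of 12981 were Yipf3, Tspan17 and Ripor1, with Pearson r of 0.97, 0.97 and 0.96. After the mean of each slide set was taken away these were 0.84, 0.87 and 0.80. Closest to Grin2b were Shank2, a postsynaptic scaffold, at 0.93, Vamp2, a vesicle fusion protein, at 0.91 and Mt3, a metallothionein of the brain, at 0.91, which became 0.91, 0.85 and 0.86. Gria1 was closest to Tprkb at 0.85, Cldn9 at 0.77 and Dpyd at 0.76, and Gria2 to Taf15 at 0.88, Usp34 at 0.86 and Dus2 at 0.84. These values describe arrays that share slides and scaling.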

How the data were processed

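Each of 18 rat hypothalamus RNA samples was labelled with Cy3 and hybridised to a 1-colour Agilent array of 62976 spots. The authors deposited the scanner output, whose processed signal is a background-corrected intensity in linear units, made with Agilent Feature Extraction 12.1.0.3 per the file headers (9.1 per the submitters' processing notes) on a design of build rn4. The deposited value table is linear too and equals that intensity times a constant per array (1.02 to 1.24), with column medians of 156.67 to 176.491.

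Control spots and outlier-marked spots (297 to 580 per array) were left out. The log2 intensity had the array's 75th percentile subtracted, and spots of 1 probe were averaged. Probes well above background on 5 of 6 arrays of a group were tested (31305 of 45598). Limma 3.58.1 in R 4.3.3 fitted the 3 groups over 18 arrays, and each test was two-sided. Symbols came from matching the transcript accession to RefSeq's GRCr8 table (21220 probes had 1 symbol, 24378 none). The fit was tested on simulated data with independent noise per array and no slide effect, so its error rates under slide differences were not tested.

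Every probe of the 10 genes is reported, with all arrays for the brightest. The genes, the lists and the 2 slide sets were chosen with earlier results of these data known. From each list the text names genes that passed, or the 2 with the smallest p. One gene of the lists is not reported here. The alternatives were other background corrections, scalings, filters and blocks, single slide sets and scan days, and each array left out. The number of arrays limits the precision.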

Additional observations from a re-analysis of the deposited data

Results flagged for a closer look

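The levels of each probe within each group were screened for an array apart from the other 5, over 51 combinations of probe and group. A value counts as apart when its gap to the nearest other array exceeds 0.625 of the group's range, which chance gives in about 1 of 20 groups. Grin2d probe 1 in stress array 4 was at 3.0031, with the other 5 stress arrays at 3.1479 to 3.1772. Grin3a probe 2 in stress with exercise array 1 was at -8.6326, with the others at -7.4897 to -6.9583. The same probe in control array 2 was at -6.2502, with the others at -7.4407 to -7.0092. This probe is the dimmest of the 17.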

How the results depend on the processing

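For stress with exercise against stress, 3 of the 17 probes and 1165 of all tested probes were called. The counts were 0 and 2 with no filter on dim probes, 0 and 0 with these 2 groups alone in the fit, 0 and 5 given the slide set, 0 and 0 when the slide was a random block, 0 and 3 within slides 4 and 5, 0 and 0 within scan day 1, and 7 and 7599 within scan day 2. Without stress arrays 5 and 6, where slide and group cannot be told apart, they were 7 and 7797. With the scan day as a block they were 4 and 3110, the 4 being Grin1, Grin2c, Grin2d probe 1 and Gria4 probe 1. Without scaling they were 0 and 1373. Leaving out each array in turn gave 0 to 5 of the 17 and 1 to 4631 of all. Without stress array 5 there were 5 of the 17 and 4631 of all, and without stress array 6 there were 4179 of all. Grin1 and Grin2d probe 1 were called without either of those arrays and in none of the other 16 cases, Grin2c in 5 of 18 cases. The cause was not tested.

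For stress with exercise against control, 5 of the 17 and 8152 of all were called. Without scaling there were 2 and 5167. The slide set left 0 and 7, the slide as a random block 1 and 1755, and scan day 1 alone 2 and 5715. Grin1, Grin2c, Grin2d probe 1 and Grin3a probe 1 were called whichever array was left out, Gria4 probe 1 in 17 of 18 cases. For stress against control, 0 of the 17 and 0 of all were called. There was 1 of the 17 within scan day 1, where all tested probes gave 3744. All tested probes gave 2 with quantile normalization, 1 with the slide set, 466 with the scan day as a block and 2 without stress arrays 5 and 6. Of the probes called against stress 31.3% were higher with exercise, and 2.40% without scaling. Against control it was 42.1%, and 13.95% without scaling or 55.3% with quantile normalization.

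The replicate numbers of the groups do not pair the rats: correlations of same-numbered arrays ran from -0.249 to 0.184, and with the replicate block stress with exercise against stress gave 0 of the 17 and 2 of all.

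None of the values that changed sign was called in either setting. They were 82 of 799 under other settings and 32 of 918 with an array left out.
For stress with exercise against stress, the slide set gave 0.038 for Gria1 probe 2, -0.095 for Gria2, -0.11 for Gria3 probe 1 and -0.022 for Gria4 probe 2, as did slides 4 and 5 alone. The slide as a random block gave -0.029 for Grin2d probe 2, 0.018 for Gria1 probe 2, -0.083 for Gria2 and -0.071 for Gria3 probe 1. Without scaling Grin2d probe 2 was at -0.0079 and Gria3 probe 1 at -0.031, and with normexp Gria1 probe 2 was at 0.0005. Within scan day 1 the values were -0.070 and -0.045 for Grin2a probes 1 and 2, -0.26 for Grin2b, -0.12 for Grin2d probe 2, -0.21 for Grin3a probe 2, 0.015 and 0.14 for Gria1 probes 1 and 2, -0.27 for Gria2, -0.19, -0.073 and -0.12 for Gria3 probes 1, 2 and 3, and -0.16 for Gria4 probe 2. With an array left out, Grin2d probe 2 ran from -0.0008 to 0.099 and Gria3 probe 1 from -0.012 to 0.053.

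For stress with exercise against control, the slide set gave -0.12 for Grin2a probe 1, -0.17 for Grin2b, 0.028 for Gria1 probe 2, -0.12 for Gria2, -0.13, -0.10 and -0.13 for Gria3 probes 1, 2 and 3, and -0.17 for Gria4 probe 2. The slide as a random block gave -0.043 for Grin2a probe 1, and -0.020 and -0.059 for Gria3 probes 2 and 3. With the scan day as a block Gria3 probe 3 was at -0.0037. Without scaling Grin2a probe 1 was at -0.0035 and Gria3 probe 2 at -0.031. Within scan day 1 the values were -0.0055 for Grin2a probe 1, -0.12 for Gria2, and -0.0021, -0.092 and -0.070 for Gria3 probes 1, 2 and 3. Within scan day 2 they were -0.077 for Grin2a probe 1, -0.057 for Grin2d probe 2 and -0.050 for Gria3 probe 3. With an array left out, Grin2a probe 1 ran from -0.063 to 0.10, Gria3 probe 2 from -0.020 to 0.033 and Gria3 probe 3 from -0.047 to 0.13.

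For stress against control, the slide set gave -0.10 for Grin2a probe 2, -0.029 for Gria2, -0.019 for Gria3 probe 1 and 0.013 for Gria4 probe 1, as did slides 1 to 3 alone and the fit without stress arrays 5 and 6. The slide as a random block gave 0.077 for Grin2b and 0.043 for Grin2c, and the scan day as a block -0.038 for Grin2a probe 2 and -0.022 for Grin2d probe 2. Gria4 probe 1 was at 0.040 with normexp, 0.012 without scaling, 0.0072 with the percentile over probes and 0.0009 with the authors' value table, and Grin2b at 0.0033 with normexp and 0.058 with quantile normalization. Within scan day 1 the values were 0.064 for Grin2a probe 1, 0.45 for Grin2b, 0.12 for Grin2c, 0.049 for Gria3 probe 3 and 0.17 for Gria4 probe 2. Within scan day 2 they were -0.10 for Grin1, -0.39 for Grin2a probe 2, -0.017 and -0.19 for Grin2d probes 1 and 2, 0.027 for Gria1 probe 2 and -0.044 for Gria3 probe 1. With an array left out, Grin2a probe 2 ran from -0.068 to 0.075, Grin2b from -0.10 to 0.082, Grin2c from -0.074 to 0.0099, Grin2d probe 2 from -0.012 to 0.080 and Gria4 probe 1 from -0.032 to 0.011.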
